A study of Mus musculus with 19 samples.

Results

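The nerves compared here are those with the most and the least signal for adiponectin, the hormone that fat cells secrete, in a series of 19 sciatic nerve microarrays from DBA/2J mice. All 19 arrays were ranked by the log2 intensity of Adipoq, the adiponectin gene, and the 6 highest (called fat-rich) were set against the 6 lowest (called fat-poor), which left 7 arrays in the middle. The arrays were chosen by measured Adipoq, so every difference between the ends is given as a description, with no test. The other 13459 genes whose mean lay above a floor of 5.54 log2 units, the 40th percentile of all probe set means, were compared. A gene was counted as following Adipoq when the means of the ends differed by at least 1 log2 unit and no fat-rich value overlapped a fat-poor one. By that rule 68 genes were higher in the fat-rich nerves and 3 were lower, which is 0.505% and 0.0223% of the genes compared. With no minimum on the size, 0.698% were higher and 0.111% lower without overlap.

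The study crossed streptozotocin diabetes, a chemical model of type 1 diabetes, with rosiglitazone. Non-diabetic mice on vehicle gave 4 arrays (CV, after 1 array was excluded by the submitters for quality), diabetic mice on vehicle gave 5 (DV), non-diabetic mice on rosiglitazone gave 5 (CR) and diabetic mice on rosiglitazone gave 5 (DR). Each array held total RNA of 1 mouse, amplified before labelling, and is named here by its group and the number in its title. Dose, duration and age are not given in the sources used here, and the labels give the tissue only as sciatic nerve, with no part of the nerve or of the tissue beside it named.

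Fat cells lie in the connective tissue around peripheral nerves and in the tissue bed beside them. They store triglyceride in droplets coated by perilipins and CIDE proteins, break it down with a chain of lipases, and release hormones such as adiponectin, leptin and resistin. Their differentiation is driven by the nuclear receptor PPAR gamma, which rosiglitazone activates. In RNA from whole tissue, more fat cells and more RNA per fat cell cannot be told apart.

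Adipoq was 13.80 in CR715, 13.28 in DR716, 13.17 in CR712, 12.93 in CR711, 12.90 in CV705 and 12.82 in DV707, the fat-rich arrays. The fat-poor arrays read 11.77 in DV706, 11.54 in CV704, 11.50 in DR718, 11.16 in CR713, 8.04 in CV702 and 5.48 in DV709. The ranking therefore had a long lower tail: 17 arrays lay between 11.16 and 13.80, and only CV702 and DV709 fell away from them, DV709 to just below the floor. At the upper limit DV707 at 12.82 was taken and DV710 at 12.69 was not, and at the lower limit DV706 at 11.77 was taken and DV708 at 11.81 was not. Every study group stood at both ends. The fat-rich end held 3 CR arrays and 1 each of DR, CV and DV, the fat-poor end held 2 CV, 2 DV, 1 CR and 1 DR, and the middle held 3 DR, 2 DV, 1 CV and 1 CR.

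**Figure D1:**
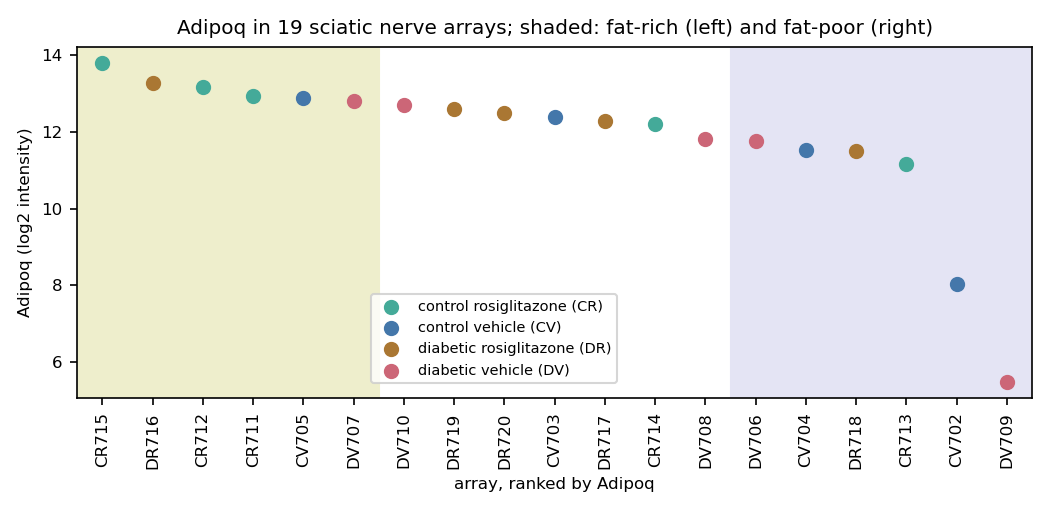
Adipoq log2 intensity (y axis) of each of the 19 arrays in rank order (x axis), 1 point per array, coloured by study group, with the fat-rich and fat-poor arrays shaded. Most arrays form a gentle slope from 13.80 to 11.16, and CV702 at 8.04 and DV709 at 5.48 lie far below it.

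The label of fat content was checked against the other fat markers. Fabp4, the fatty acid carrier of adipocytes, lay between 13.94 and 14.31 in the fat-rich arrays and between 9.64 and 13.66 in the fat-poor ones. Cidec, which fuses lipid droplets, lay between 10.87 and 13.68 against 4.41 and 10.18. Both markers separated the ends without overlap, with differences of 1.57 and 4.05 log2 units. Ranking all arrays by Fabp4 in place of Adipoq put 4 of the 6 fat-rich and 5 of the 6 fat-poor arrays at the same end, and ranking by Cidec put 5 and 5 there. The mean level of 23 adipocyte identity and lipid droplet genes placed 6 and 5 arrays at the same ends.

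Signs of other tissue and of RNA quality varied among the same arrays. Isl1, a transcription factor of sensory neuron cell bodies, was low in CR715 (6.41), DR716 (3.83) and DV707 (6.04) at the fat-rich end and in DV706 (5.21) and DV709 (3.97) at the fat-poor end, and lay between 9.47 and 11.35 in the other 14 arrays. The 20 sensory neuron genes tested had a median difference of -0.87 with 0 followers, against 0.528% of all genes counted either way. Their mean level, taken over log2 values centred on each gene's own mean, ran from -3.12 to 1.43 in the fat-rich and from -2.68 to 1.37 in the fat-poor arrays. The 3 prime minus 5 prime difference of the Gapdh control probe sets, a sign of RNA degradation, was 4.38 in DV707, 3.71 in DV706 and 1.75 in DR716, against 1.00 to 1.37 in the others. Without the 5 arrays low in Isl1, the median difference of the 68 genes was 1.55 in place of 2.31 log2 units, and 51 of 68 differed by at least 1. The part of neuronal tissue and RNA quality in the differences was not tested. Mbp, a myelin protein gene of Schwann cells, stood between 13.83 and 14.44 in all 19 arrays, near the top of the intensity scale. Over the list of myelin and Schwann cell genes 22 of 23 were lower at the fat-rich end, with a median of -0.56, and without the same 5 arrays the median was -0.02.

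The largest difference belonged to Pck1, phosphoenolpyruvate carboxykinase, which makes the glycerol backbone for triglyceride in fat. Pck1 was 12.73 in CR715, 11.12 in DR716, 11.15 in CR712, 10.82 in CR711, 9.87 in CV705 and 10.67 in DV707. In the fat-poor arrays it was 8.54 in DV706, 7.45 in CV704, 7.82 in DR718, 8.26 in CR713, 4.88 in CV702 and 3.52 in DV709. CR715 stood above all other arrays and CV702 and DV709 stood below them, and the means of 11.06 ± 0.94 and 6.75 ± 2.05 (SD, n = 6 each) differed by 4.31 log2 units. The mean of its 3 probe sets in place of the brightest one gave 2.41.

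Among the 15 largest differences were genes of lipid droplets and glycerol handling. Aqp7, the channel through which adipocytes release glycerol, was 8.31 ± 1.30 in fat-rich and 4.22 ± 1.40 in fat-poor arrays. Cidec was 12.28 ± 0.94 against 8.23 ± 2.27. Plin4, a coat protein of lipid droplets, was 11.42 ± 0.92 against 8.26 ± 1.11, and Lgals12, a galectin found on the droplet, was 9.13 ± 1.02 against 5.46 ± 1.47 (SD, n = 6 each). Plin5, another droplet coat protein, differed by 3.59 but overlapped between the ends and was not counted. Of the 23 tested genes on the adipocyte identity and droplet list 21 were higher and 2 lower at the fat-rich end, 10 of them were counted, and the median difference was 1.60 against -0.009 over all genes. The list's median was 0.90 without the 5 arrays low in Isl1 and 1.06 without the 2 lowest arrays.

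**Figure D2:**
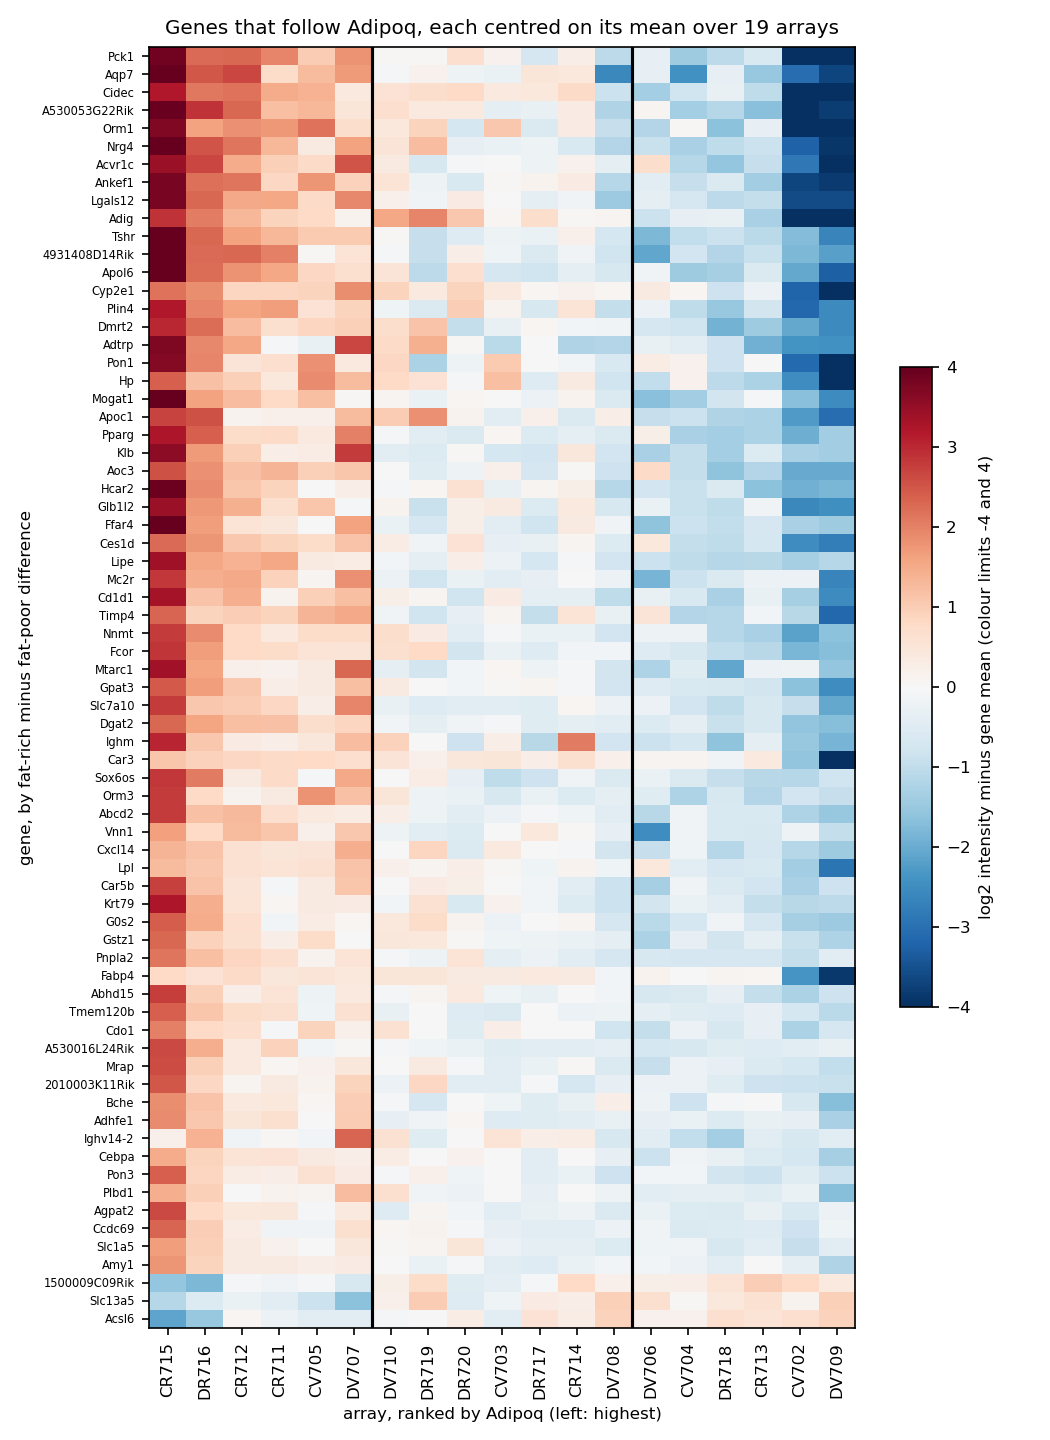
Log2 intensity minus the gene's own mean over 19 arrays for the 68 genes higher and 3 genes lower in fat-rich arrays (rows, ordered by difference), with the arrays in Adipoq rank order (columns); black lines bound the fat-rich, middle and fat-poor arrays. CR715 holds the maximum of 66 of the 68 genes, and the strongest blue of the upper rows is in CV702 and DV709.

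The enzymes that break triglyceride down were higher at the top of the ranking. Lipe, hormone-sensitive lipase, was 12.01 in CR715, 10.18 in DR716, 10.02 in CR712, 10.17 in CR711, 9.0 in CV705 and 8.92 in DV707, while all 6 fat-poor arrays read between 7.29 and 7.76. Pnpla2, adipose triglyceride lipase, ran from 10.32 to 12.30 in the fat-rich arrays and from 9.22 to 9.72 in the fat-poor ones. G0s2, the protein inhibitor of that lipase, differed in the same direction by 1.70. Lipe and Pnpla2 told the 6 fat-rich arrays apart from each other but barely told CV702 and DV709 from the 4 other fat-poor arrays.

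Triglyceride assembly followed as a group of enzymes rather than as a whole pathway. Mogat1 and Dgat2, acyltransferases that add fatty acids to the glycerol backbone, differed by 2.82 and 2.25. Gpat3 and Agpat2, which act before Dgat2 in making triglyceride, differed by 2.28 and 1.19. The genes that make the fatty acids themselves were not counted: Fasn, fatty acid synthase, differed by 0.50, Acaca by 0.48, Acly by 0.04 and the desaturase Scd1 by 0.18. Fasn stood at 12.99 in CR715 and between 9.99 and 11.19 in the other 18 arrays, so that its difference without CR715 was 0.14. Scd1 gave 0.63 as the mean of its 2 probe sets. Of the 26 synthesis genes tested 20 were higher and 4 were counted (Pck1, Mogat1, Dgat2 and Agpat2), with a median difference of 0.38. Gpat3 was not on that list.

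Genes of fatty acid uptake and oxidation were compared in the same way. Lpl, the lipase that frees fatty acids from lipoproteins, was 13.36 ± 0.32 in fat-rich against 11.55 ± 1.13 in fat-poor arrays, and the fatty acid receptor Cd36 differed by 1.81 with overlap (SD, n = 6 each). Of 15 tested uptake genes 10 were higher and 2 were counted, Lpl and Fabp4, with a median of 0.17. Of 25 oxidation and ketone genes 23 were higher and 0 were counted, with a median of 0.29. Over all genes 6532 of 13459 were higher and 0.528% were counted either way, so a count of 0 in 25 is near that share. Without the 5 arrays low in Isl1 the medians of the synthesis, uptake and oxidation genes were 0.21, 0.10 and 0.17.

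The regulators of adipocyte fate were represented by PPAR gamma and its partner C/EBP alpha. Pparg was 11.48 in CR715, 10.63 in DR716, 8.98 in CR712, 9.02 in CR711, 8.64 in CV705 and 10.26 in DV707. In the fat-poor arrays Pparg was 8.50 in DV706, 6.96 in CV704, 6.88 in DR718, 6.99 in CR713, 6.30 in CV702 and 6.86 in DV709. The 3 highest values belonged to 3 arrays low in Isl1, the highest fat-poor value was in DV706, another such array, and the margin between the ends was small. Cebpa differed by 1.34. Of 23 tested PPAR and adipogenic genes only these 2 were counted, and the median was 0.07. Ppara and Ppard, the related receptors, differed by 0.07 and 0.05.

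Hormones and secreted proteins did not all follow. Adig, adipogenin, a small membrane protein of adipocytes, was 11.83 ± 0.98 against 8.21 ± 2.50, and Retn, resistin, was 12.68 ± 0.74 against 9.35 ± 2.50 with an overlap of DV706 at 11.85 and CR712 at 11.62 (SD, n = 6 each). The acute phase carrier Orm1 differed by 4.02, the haemoglobin binder Hp by 2.94, the growth factor Nrg4 by 3.87 and the matrix inhibitor Timp4 by 2.35, all without overlap. Rbp4, Itih5 and Sfrp5, which fat also secretes, differed by 0.51, 0.14 and 0.03. Of the 11 genes tested on the adipokine list, which does not hold Orm1, Hp, Nrg4 or Timp4, 10 were higher, and Adig alone was counted.

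Leptin, the satiety hormone of fat, did not keep to the ranking. Lep was 11.46 in CR715, 8.48 in DR716, 10.78 in CR712, 8.81 in CR711, 9.98 in CV705 and 3.96 in DV707, and the fat-poor arrays lay between 3.58 and 6.91. DV707, which had 13.94 for Fabp4 and 12.77 for Retn, was below the floor for Lep, and the ends overlapped. In the middle of the ranking, where Adipoq lay between 11.81 and 12.69, Lep was 8.75 in CV703 and 7.93 in CR714 from non-diabetic mice. The diabetic arrays there read 7.68 in DV710, 4.78 in DR719, 5.27 in DR720, 5.01 in DR717 and 5.03 in DV708. Over all 19 arrays diabetic and non-diabetic values overlapped.

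**Figure D3:**
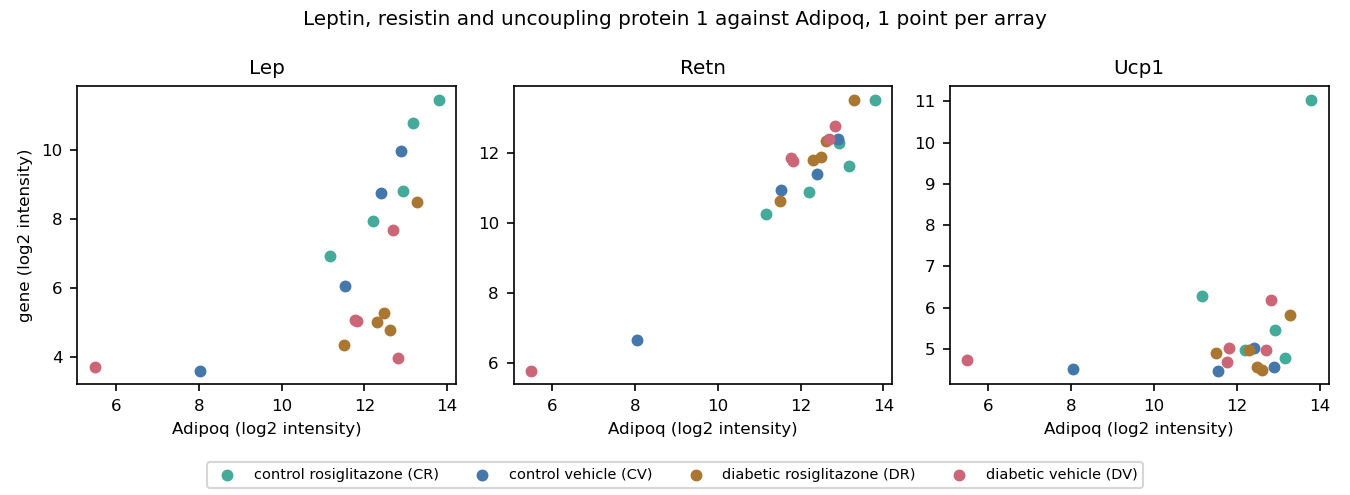
Log2 intensity of leptin (Lep), resistin (Retn) and uncoupling protein 1 (Ucp1) on the y axes against Adipoq on the x axes, 1 point per array, coloured by study group; the y axes differ. Retn rises with Adipoq, Lep scatters between 3.96 and 11.46 among the fat-rich arrays, and Ucp1 is high in CR715 alone.

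The counted genes held several receptors, which were picked out after their values were seen and form no tested list. Acvr1c, the activin type receptor ALK7, differed by 3.83, Tshr, the thyrotropin receptor, by 3.42, and Klb, the co-receptor for FGF21, by 2.75. Hcar2, the niacin and hydroxybutyrate receptor, differed by 2.61 and Ffar4, a receptor for long-chain fatty acids, by 2.56. Mc2r, the corticotropin receptor, differed by 2.51 and Mrap, the protein that carries it to the membrane, by 1.40. Tshr, Klb, Hcar2, Ffar4 and Mc2r were among 17 counted genes whose fat-poor mean lay below the floor, so their differences are limited by the dim end of the array. Ffar4 was 9.89 in CR715, 7.33 in DR716 and 7.25 in DV707, the fat-rich arrays low in Isl1, and 5.66 to 6.18 in the other 3.

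Several further genes of fat metabolism met the rule. Cyp2e1, a cytochrome P450, differed by 3.32, the amine oxidase Aoc3 by 2.66, the lipase-like carboxylesterase Ces1d by 2.56, the nicotinamide methyltransferase Nnmt by 2.33 and carbonic anhydrase Car3 by 2.16. The lipoprotein genes Pon1 and Apoc1 differed by 2.95 and 2.77. Among the 15 largest differences also stood A530053G22Rik at 4.02, Ankef1 at 3.74, 4931408D14Rik at 3.36 and Apol6, an apolipoprotein L, at 3.32. A530053G22Rik, a gene of no assigned function here, was 11.23 in CR715 and read 3.13 in CV702 and 3.50 in DV709.

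Promoter sequences were available for 41 of the 68 higher genes, as 50 RefSeq entries of 300 bases each on GRCm38.p6. The nuclear receptor core site AGGTCA, searched on both strands (TGACCT is the same site on the opposite strand), was in 13 of 50 entries, 26% against 16.3% of 32851 entries of all genes. The 13 entries belonged to 11 genes, and the entries of Aqp7 overlap and share a site. The share by gene was not computed over all genes. The relaxed direct repeat of that core spaced by 1 base, the form that PPAR gamma with its RXR partner binds, was in 0 of 50 against 0.381%, and TTGCNNAA, a C/EBP type motif, was in 18% against 10.8%. Of the 15 genes with the largest differences 11 had an entry and 3 of these, Nrg4, Adig and Aqp7, held the core site in the 250 bases before their start. Those 3 stretches are printed to show where it lies, 5 prime to 3 prime on the gene's strand, with the core site of either strand in capitals. They are chr9:55283626-55283875 on the minus strand for Nrg4, chr2:158502362-158502611 on the plus strand for Adig and chr4:41048137-41048386 on the minus strand for the first Aqp7 entry.
Nrg4: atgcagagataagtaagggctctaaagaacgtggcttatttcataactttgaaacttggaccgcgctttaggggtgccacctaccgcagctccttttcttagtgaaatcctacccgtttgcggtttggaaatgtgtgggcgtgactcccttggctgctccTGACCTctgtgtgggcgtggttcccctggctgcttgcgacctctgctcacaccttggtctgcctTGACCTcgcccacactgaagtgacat
Adig: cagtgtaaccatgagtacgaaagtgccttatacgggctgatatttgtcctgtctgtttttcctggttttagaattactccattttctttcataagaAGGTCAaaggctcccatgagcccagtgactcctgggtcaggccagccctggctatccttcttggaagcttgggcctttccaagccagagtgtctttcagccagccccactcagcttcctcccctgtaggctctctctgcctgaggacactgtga
Aqp7: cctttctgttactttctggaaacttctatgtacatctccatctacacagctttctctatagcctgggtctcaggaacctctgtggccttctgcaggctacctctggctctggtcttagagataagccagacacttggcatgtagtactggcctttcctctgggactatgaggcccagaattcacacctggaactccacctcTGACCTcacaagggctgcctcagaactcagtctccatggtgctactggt
A match of letters is a description and not a measured binding site.

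Nrg4, the first of these, was 12.36 in CR715, 10.84 in DR716, 10.44 in CR712, 9.65 in CR711, 8.69 in CV705 and 9.91 in DV707. It was 7.41 in DV706, 7.01 in CV704, 7.31 in DR718, 7.46 in CR713, 5.07 in CV702 and 4.43 in DV709. The fat-poor arrays thus split into 4 close together and 2 far below them, while the fat-rich arrays were spread over a wide range.

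That split showed 2 shapes among the counted genes. For 14 of the 68 the step from the 4 upper fat-poor arrays down to CV702 and DV709 was larger than the step from those 4 up to the fat-rich mean, and for 54 the upper step was larger. Fabp4, Car3, Cyp2e1 and Adig belonged to the first kind. Fabp4 lay within 13.41 and 14.31 in 17 arrays and dropped to 11.16 in CV702 and 9.64 in DV709, so that the difference without those 2 arrays was 0.51 in place of 1.57. Car3 lay between 12.70 and 13.97 in 17 arrays, then 11.26 in CV702 and 6.09 in DV709, and its difference without them was 0.73 in place of 2.16. Agpat2, Pnpla2, Lipe, Klb and Ffar4 belonged to the second kind, with differences of 0.01, 0.04, 0.21, 0.32 and 0.31 between the 4 upper fat-poor arrays and the 2 lowest. Fabp4 and Car3 lay near the top of the intensity scale in the 17 arrays, which limits a further rise. The fat-poor means of Klb and Ffar4 lay below the floor, which limits a further fall, while those of Agpat2, Pnpla2 and Lipe were 9.83, 9.50 and 7.53. The part of these limits in the 2 shapes was not tested. Without CV702 and DV709 the 68 genes had a median difference of 1.95, and 64 of 68 were at 1 or more.

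**Figure D4:**
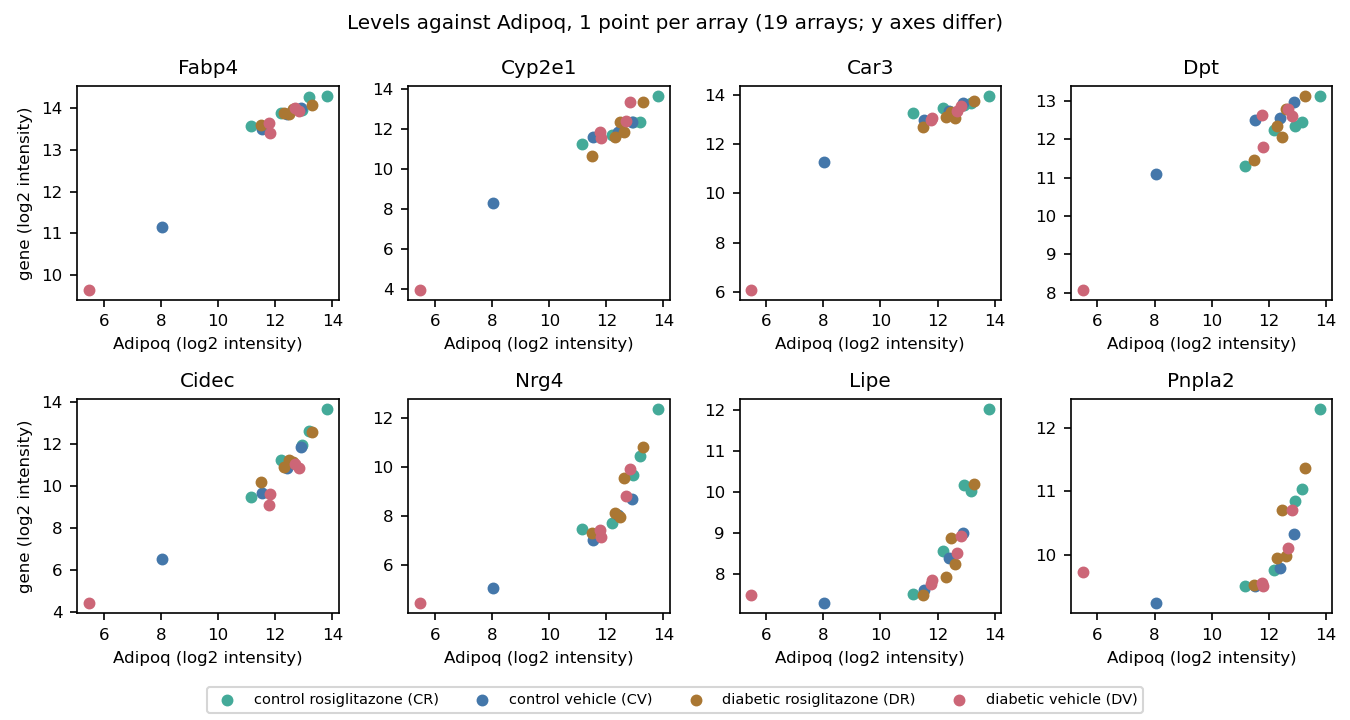
Log2 intensity of 8 genes (y axes, which differ) against Adipoq (x axes), 1 point per array over 19 arrays, coloured by study group. In the upper row Fabp4, Cyp2e1 and Car3 differ most between the cluster and the 2 lowest arrays and the matrix gene Dpt is far lower in DV709 alone, and in the lower row Lipe and Pnpla2 are level at the low end and rise at the top, with Cidec and Nrg4 doing both.

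CR715 carried the maximum of 66 of the 68 higher genes, against 10.6% of all genes. The other 2, the chemokine Cxcl14 and the immunoglobulin segment Ighv14-2, were highest in DV707. At the low end DV709 held the minimum of 43 and CV702 of 17, against 8.14% and 2.47% of all genes. Since the rule asks for no overlap, the direction of the 68 genes is fixed whichever of the 12 arrays is left out. The rule also asks for a difference of at least 1 over these same arrays, so the sizes lean upward and are descriptions. Without CR715 the median difference was 2.02 and 63 of 68 were at 1 or more. The median was 2.07 among the 6 vehicle arrays of the ends and 2.22 among the 6 rosiglitazone arrays.

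Brown fat genes were examined because of CR715. Ucp1, the uncoupling protein that defines brown and beige fat, was 11.04 in CR715 and between 4.46 and 6.27 in the other 18 arrays, and its mean lay below the floor, so it was outside the comparison. Cidea, a droplet protein abundant in brown fat, was 11.74 in CR715 and 4.82 to 8.39 elsewhere. Elovl3, another brown fat gene, was 3.90 in CR715, under the floor there and in every other array. Of 15 brown fat and thermogenic genes tested 8 were higher at the fat-rich end and 0 were counted, with a median of 0.06. That count is near the share of all genes, 0.528%.

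The genes whose pattern over all 19 arrays was most like that of Adipoq were Fabp4 (Pearson r = 0.98, Spearman rho = 0.94), Cyp2e1 (0.98 and 0.93), Ifi27l2a (0.98 and 0.90), Retn (0.96 and 0.86), Adig and Cidec (both 0.96 and 0.91). They were followed by Lpl (0.94 and 0.91), Car3 (0.94 and 0.92), Dpt (0.93 and 0.76) and Gpx3 (0.92 and 0.74). These values are descriptions, since the arrays share amplification and normalization and 2 arrays far from the rest shape them. Over the 17 arrays without CV702 and DV709 the closest were A530053G22Rik (r = 0.94), Cidec (0.93), Fabp4, Nrg4 and Dmrt2 (0.92 each), while Dpt fell to 0.77 and Gpx3 to 0.74. Ifi27l2a, an interferon-inducible gene, lay between 13.05 and 14.09 in the 17 and was 12.24 in CV702 and 11.67 in DV709, so it tracked Adipoq closely over a narrow range. Over all genes the median r in the 17 arrays was 0.02, and over the 68 it was 0.84, as their choice makes it.

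Only 3 genes ran the other way. Acsl6, an acyl-CoA synthetase known from neural tissue, was 6.78 in CR715 and 7.40 in DR716, 8.44 to 9.0 in the other fat-rich arrays, and 9.06 to 9.82 in the fat-poor ones. Slc13a5, a citrate transporter, differed by -1.27 and 1500009C09Rik by -1.25. Only 1 of the 2 probe sets of Slc13a5 was lower at the fat-rich end. Without the 5 arrays low in Isl1 these differences shrank to -0.71 for Acsl6, -0.82 for Slc13a5 and -0.74 for 1500009C09Rik. Housekeeping genes had a median of -0.05.

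Of the genes of immune cells of connective tissue, 0 of 10 mast cell and 1 of 10 lymphocyte genes were counted, against 0.528% of all genes. All 10 mast cell genes had a higher mean at the fat-rich end, with a median of 1.26, and the protease genes Cpa3, Mcpt4 and Cma1 differed by 1.45, 1.23 and 1.27. The mean mast cell level ran from -0.69 to 2.14 in the fat-rich and from -1.46 to 0.61 in the fat-poor arrays, which overlap. Without the 5 arrays low in Isl1 the mast cell median was 1.09. All 10 lymphocyte genes had a higher mean, with a median of 0.84, or 0.33 without those 5 arrays. Ighm, the heavy chain of immunoglobulin M, was the 1 counted, at 12.60 in CR715, 9.81 to 10.78 in the other fat-rich arrays and 7.70 to 9.19 in the fat-poor ones. Of its 11 probe sets 9 pointed the same way. Cd79a, which marks B cells, differed by 0.20. The part of these cells in the results was not tested.

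Skeletal muscle genes overlapped between the ends. Acta1, skeletal muscle actin, ran from 4.67 to 12.63 in the fat-rich and from 4.81 to 12.61 in the fat-poor arrays. Of 32 muscle genes 27 were higher and 0 were counted, against 0.528% of all genes counted. Their mean levels overlapped widely, from -1.82 to 2.57 and from -1.62 to 2.14. The fibroblast collagen Col1a1 differed by -0.03 and the endothelial cadherin Cdh5 by -0.32. Smooth muscle and pericyte genes had a median of 0.66, macrophage genes 0.44 and blood genes 1.00, and without the 5 arrays low in Isl1 these were 0.41, 0.09 and -0.18.

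**Figure D5:**
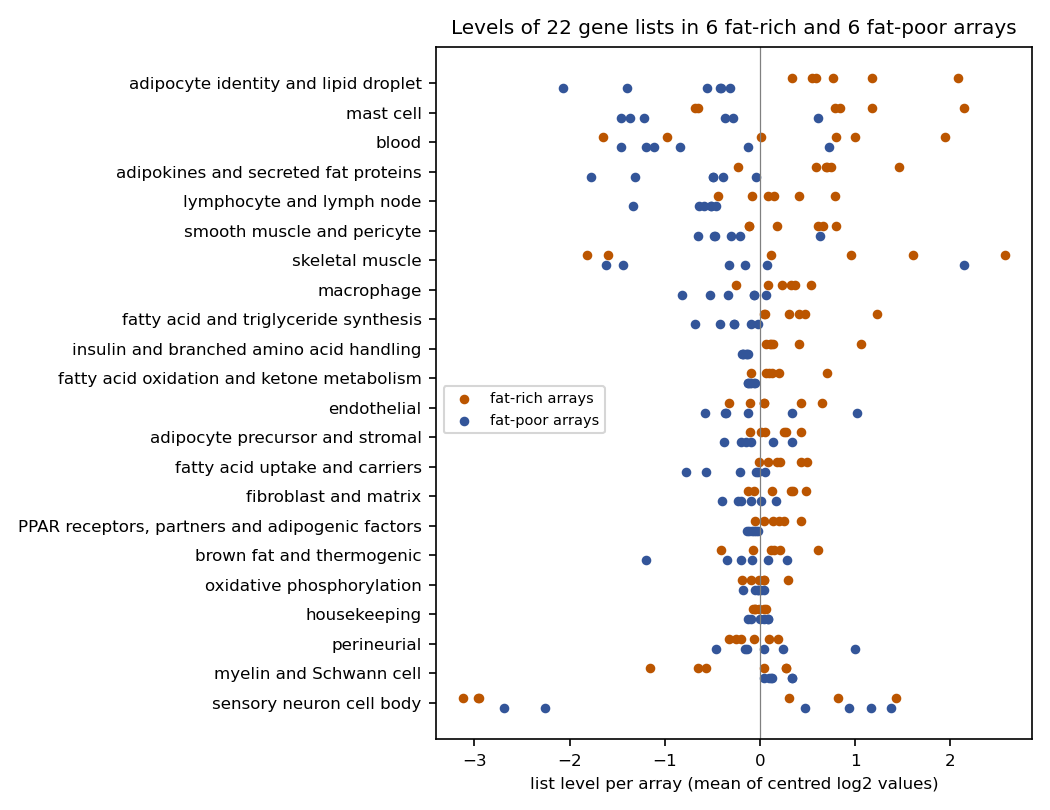
Mean level of each of 22 gene lists in the 6 fat-rich (orange) and 6 fat-poor (blue) arrays, 1 point per array; the x axis is the mean over the list of log2 values centred on each gene's own mean over 19 arrays, and lists are ordered by median difference. The adipocyte list separates the ends, from 0.34 to 2.08 against -2.07 to -0.31, while muscle and sensory neuron levels are wide and overlap.

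The values of the 7 middle arrays were not used to call the 68 genes, although their place was set by Adipoq and the floor and the probe sets were set over all 19 arrays. A limma slope of each gene on Adipoq across them, where Adipoq spanned only 11.81 to 12.69, called 0 of 13459 genes (0%) at an adjusted p under 0.05, and 2414 genes (17.9%) had an unadjusted p under 0.05. None of the 68 genes passed, and the smallest adjusted p among them was 0.193, for Car5b, a mitochondrial carbonic anhydrase (slope 1.25 ± 0.26 SE per log2 unit of Adipoq, limma). In simulated data of the same size the fit called 0 of 50 genes with a slope of 1 and 16 of 50 with a slope of 2. The simulated noise was the spread within study groups over all 19 arrays, CV702 and DV709 included. The spread among the 7 middle arrays was not used, so the simulation does not show which slopes could be called there. The slope was positive for 61 of the 68 (89.7%, against 47.4% of all genes), with a median of 0.71 against -0.03. Of the 2414 genes with an unadjusted limma p under 0.05, 1067 had a positive slope. Such a p was reached by 21 of the 68 (30.9%), all with a positive slope. Among these were Nrg4 with a slope of 2.26 ± 0.53, Lgals12 with 1.74 ± 0.38, Cidec with 1.55 ± 0.46 and Fabp4 with 0.61 ± 0.17 (SE, limma, adjusted p of 0.195, 0.195, 0.205 and 0.198). The 7 with a negative slope were Bche, Mc2r, Ffar4, Timp4, Slc7a10, Vnn1 and Tmem120b. The slope of Lep was 1.10 ± 2.08, with an adjusted limma p of 0.806. The 3 lower genes all had negative slopes there. The counted genes were chosen for following Adipoq and vary together, so their slopes are a description and no separate finding.

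The question of the study, what diabetes and rosiglitazone change, was read for the same genes across all 19 arrays. Adipoq averaged 11.22 ± 2.19 in CV (SD, n = 4), 10.91 ± 3.08 in DV, 12.65 ± 1.01 in CR and 12.44 ± 0.64 in DR (SD, n = 5 each), and no contrast of it passed limma. The rosiglitazone difference of Adipoq was 1.43 ± 1.24 in control mice and 1.52 ± 1.17 log2 units in diabetic mice (SE, limma, adjusted p of 1 and 0.584). The group means rest on different spreads: both vehicle groups contain 1 of the 2 lowest arrays and the rosiglitazone groups contain neither.

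Of 13460 genes 0 (0%) passed an adjusted limma p of 0.05 in any of the 5 contrasts. An unadjusted limma p under 0.05 was found for 381 genes (2.83%) in the rosiglitazone contrast of control mice, and 6 of the 68 genes were among them. The same contrast in diabetic mice held 1305 (9.7%) with 0 of the 68. Diabetes held 2439 (18.1%) with 0 of the 68 on vehicle, and 173 (1.29%) with 1 of the 68, Ighm, on rosiglitazone, and the interaction held 642 (4.77%) with 0. The 68 genes were higher with the drug in control mice in 68 cases with a median of 1.09, and in diabetic mice in 60 cases with a median of 0.47. Of all genes 50.6% and 47.2% were higher in the same contrasts. The 68 genes were higher in diabetic mice under vehicle in 39 cases with a median of 0.05, and under rosiglitazone in 3 cases with a median of -0.57. Of all genes 52.9% and 51.7% were higher there, so the 39 cases lie near the share of all genes. These contrasts share arrays, and the choice of the genes leans the same way because the fat-rich end held 3 CR arrays and the fat-poor end 4 vehicle arrays, so the directions are no separate finding.

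Pck1 averaged 7.81 ± 2.20 in CV (SD, n = 4), 7.89 ± 2.66 in DV, 10.42 ± 1.76 in CR and 9.11 ± 1.30 in DR (SD, n = 5 each). The rosiglitazone difference in control mice was 2.61 ± 1.28 (SE, limma, adjusted p of 1), and with the Adipoq level as a covariate it was 1.24 ± 0.52 (SE, adjusted limma p of 1). Cidec differed with rosiglitazone by 2.07 ± 1.25 in control and 2.21 ± 1.18 in diabetic mice, and with the covariate by 0.67 ± 0.33 and 0.73 ± 0.31 (SE, limma, adjusted p between 0.399 and 1). For Fabp4 the same contrasts were 0.87 and 0.95, and with the covariate 0.05 and 0.09. With the covariate these rosiglitazone differences of Cidec and Fabp4 were smaller, and none passed either way. For Pck1 in diabetic mice the rosiglitazone difference was 1.22 without and -0.24 with it, and the diabetes difference under vehicle was 0.09 and 0.38. Cidec, Fabp4 and Pck1 were all chosen for following Adipoq. Smaller rosiglitazone differences with the covariate follow from that choice and are no separate finding.

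Lep averaged 7.09 ± 2.86 in CV (SD, n = 4), 5.09 ± 1.57 in DV, 9.18 ± 1.91 in CR and 5.58 ± 1.65 in DR (SD, n = 5 each). The diabetes difference of Lep under rosiglitazone was -3.60 ± 1.19, and with Adipoq as a covariate -3.46 ± 0.93 (SE, limma, unadjusted p of 0.00753 and 0.00186, adjusted p of 1 in both). With the adipocyte list level as the covariate it was -2.79. The rosiglitazone difference of Lep was 2.09 in control and 0.49 in diabetic mice, and with the Adipoq covariate 1.14 and -0.51, none of them past the adjusted limma threshold. Leaving out each array of both groups in turn kept the value between -4.33 and -3.03. The call was not made in any setting: the adjusted limma p over these alternatives lay between 0.394, with array weights, and 1. In DR716, rich in Adipoq, Lep was 8.48, and the other 4 DR arrays read between 4.35 and 5.27.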

How the data were processed

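The deposited values are intensity values of 45101 Affymetrix probe sets on a linear scale, and RMA is the method named in the submitters' processing notes; version, settings and the return to a linear scale are not given in the sources used here. The log2 of each value was taken with no offset. Median intensity per array lay between 83.3 and 101.7. Of the probe sets 34945 carried 1 gene symbol, 932 several and 9160 none listed, and 64 were controls; 18193 genes were each read from the probe set with the highest mean, and 13460 had a mean above the 40th percentile (5.54). Those without a single symbol were not used. Directions at both array ends were described without a test. The slope in the 7 middle arrays and the 5 contrasts of the study groups were fitted with limma 3.58.1 in R 4.3.3 (lmFit, eBayes) and adjusted by Benjamini-Hochberg over all genes, after the scripts were tested on simulated data. The p-values reflect how much arrays of separate mice varied, and the number of arrays limits the precision. Genes were named by rule: the 15 highest and up to 10 lowest differences among counted genes, the 10 most like Adipoq, up to 4 counted genes of each of 22 lists, and 22 fixed genes. All other named genes were chosen after their values were seen, and the members and lists were chosen with earlier results of these data known. Plin1 and Cfd had no named probe set. Alternatives were other ends and ranking genes, arrays left out, group centring, filters, scalings, probe set means and covariates.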

Additional observations from a re-analysis of the deposited data

Results flagged for a closer look

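For 19 genes the arrays of each of the 4 study groups and of each end were searched for a single array far from the others, 114 sets in all, of which 20 held one. Chance gives such an array in about 1 in 20 sets. The sets share arrays, so they are not independent of each other.

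In diabetic vehicle arrays DV709 was far below the other 4 for Adipoq (5.48 against 11.77 to 12.82), Fabp4 (9.64 against 13.41 to 14.0), Retn (5.77 against 11.76 to 12.77) and Car3 (6.09 against 12.97 to 13.53). DV709 was also far below the other fat-poor arrays for Car3, at 6.09 against 11.26 to 13.25.

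CR715 was far above the other control rosiglitazone arrays for 4 genes: Scd1 (14.11 against 13.55 to 13.69), Fasn (12.99 against 10.87 to 11.19), Slc2a4, the insulin-responsive glucose transporter (10.95 against 7.94 to 8.42), and Ucp1 (11.04 against 4.78 to 6.27). It was far below them for Isl1, at 6.41 against 9.98 to 11.26. Among fat-rich arrays it was again far above the rest for Slc2a4 (10.95 against 7.94 to 8.91) and Ucp1 (11.04 against 4.57 to 6.19).

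DR716 was far above the other diabetic rosiglitazone arrays for Lep (8.48 against 4.35 to 5.27), Pparg (10.63 against 6.88 to 7.80) and Cd36 (11.99 against 10.55 to 10.87), and far below them for Isl1 (3.83 against 9.47 to 11.12).

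The remaining ones were single values. DV706 was high for Pparg among the fat-poor arrays (8.50 against 6.30 to 6.99). DV707 was high for Ucp1 in the diabetic vehicle group (6.19 against 4.68 to 5.01). CR713 was high for Ucp1 among the fat-poor arrays (6.27 against 4.46 to 4.90). CV702 was high for Cdh5 among the fat-poor arrays (9.46 against 9.12 to 9.24).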

How the results depend on the processing

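The count of 68 higher and 3 lower genes moved with how the ends were drawn. It was 142 and 7 with 5 arrays at each end, and 48 and 1 with 7. Ranking by Fabp4 gave 108 and 9, ranking by Cidec 38 higher, and ranking by the adipocyte list 99 and 5; 42 of the 68 recurred under Fabp4, 35 under Cidec and 55 under the list. Values centred on group means gave 29 and 5, with 21 of the 68. Fewer arrays relax the rule of no overlap: vehicle arrays alone gave 241 and 58, rosiglitazone arrays alone 377 and 236, arrays without a Gapdh difference above 1.5 gave 135 and 7, and arrays without Isl1 below 6 gave 149 and 43. Leaving out each of the 12 arrays in turn gave 63 to 140 higher and 3 to 9 lower genes, the 140 without DV706. A filter at the 60th percentile gave 45 and 1, a difference of at least 2 gave 42 and 0, and probe set means gave 1 lower gene. No overlap at any size gave 15 lower genes, and both settings without the 2 lowest arrays, added after seeing the data, gave 7 lower genes. Beyond having fewer arrays or genes, the cause was not tested. Among values of single named genes, with the diabetes contrast of Lep under rosiglitazone included, 1185 were labelled as kept and 7 as moved. For the named genes kept means a size within the spread between arrays. For the Lep contrast it means a negative value without a call. No counted gene changed sign, which the rule partly fixes, while uncounted ones did: the alternatives ran from -3.02 to 0.60 for Isl1, -0.96 to 2.47 for Acta1, -0.12 to 0.08 for Col1a1 and -0.02 to 0.80 for Fasn.

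Study contrasts gained calls in 3 settings, none of them among the 68 genes: 4 genes for diabetes under vehicle without DV710 (Ccl7, Poc5, Pole4 and Srpx, so leaving out each array gave 0 to 4), 20 for rosiglitazone in control mice with array weights, and 1 (Ces1f) for diabetes under vehicle with the adipocyte list as a covariate, an alternative added after seeing the data. The middle slope gave 0 to 5 calls when each array was left out, the 5 without DR720 (Actn3, Gem, L3hypdh, Loxl1 and Prcp). No paired analysis was possible because the titles share no replicate number between groups. Genes near the floor have compressed differences, and 7 arrays over a narrow span of Adipoq limit the slope.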

Other observations

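Beside the fat genes, several genes of stromal and immune cells tracked Adipoq over the long range of the ranking. Sfrp2, a secreted Wnt inhibitor of fibroblasts, was 12.58 in CR715, 11.15 in CR712 and 10.40 in CR711, and read 6.14 in CV702 and 4.98 in DV709. Sfrp2 also reached 12.68 in a CV array and 12.65 in a DR array, and it differed between the ends by 3.45 with overlap. Its correlation with Adipoq was 0.90 over 19 arrays and 0.72 over the 17 without the 2 lowest. Sfrp4, Gdf10 and Pcolce2, further secreted stromal proteins, gave 0.89, 0.89 and 0.87 over 19 arrays and 0.62, 0.68 and 0.65 over 17. They differed between fat-rich and fat-poor arrays by 2.16, 2.74 and 2.34 log2 units with overlap. These genes were chosen after their values were seen.

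The chemokines Cxcl13, which attracts B cells, and Ccl8 behaved likewise. Cxcl13 ran from 14.29 in DV707 to 3.55 in DV709, with a correlation to Adipoq of 0.84 over 19 arrays, 0.96 after centring on study group means and 0.42 over the 17 arrays. Ccl8 ran from 13.70 in DV707 to 7.97 in DV709, with 0.67, 0.87 and 0.43. The correlations of both were thus lower without the 2 lowest arrays. Across the 7 middle arrays the slopes on Adipoq were 2.43 ± 0.97 for Cxcl13 and 2.44 ± 1.18 for Ccl8 (SE, limma, adjusted p of 0.259 and 0.321). Among the fat-rich arrays CR712 and CR711 were the lowest, at 10.23 and 10.02 for Cxcl13 and 9.71 and 9.67 for Ccl8. Cox8b, a cytochrome oxidase subunit of muscle and brown fat, was 13.30 in CR715, 5.86 in DV709 and 6.12 in CV702.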
